A study of Mus musculus with 15 samples.

Results

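Pdx1 was followed as a single gene, through the 1 cluster (a set of probes read together) that the platform annotation assigns to it alone, number 10527565. It was 1 of 19938 genes with such a cluster on the array. The 15 arrays, Affymetrix Mouse Gene 1.0 ST, measured total RNA of islet cells from mice of a mixed B6 and BALB/C background, 5 arrays in each of 3 groups. The beta and alpha groups were normal islet cells sorted for YFP from mice of age 2 months. The Pdx1-deficient group was taken 5 days after tamoxifen and is described as reprogrammed cells of the genotype PKO. The labels give the beta samples the genotype glucagon-Cre with RosaYFP and the alpha samples RIP-CreER with Pdx1fl/+ and RosaYFP. RIP-CreER is a tamoxifen-dependent Cre under a rat insulin promoter and glucagon-Cre is driven by the glucagon promoter, so the genotypes stand the other way round from the cell types in the titles, which were used here. As written, the alpha-titled samples would carry 1 floxed Pdx1 allele. Which exon was removed, whether the normal cells saw tamoxifen, how the Pdx1-deficient cells were isolated and whether each array was a separate animal were not given in the sources used here, so p-values measure only the spread between arrays.

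Pdx1 is a ParaHox homeodomain factor that is needed for the pancreas to form and that in the adult is found mainly in beta cells and some delta cells. In beta cells it binds short TAAT-core elements in the insulin, amylin, glucose transporter and other genes, and its own gene is held active by factors such as Foxa2, Pax6, Mafa and Pdx1 itself. The study's title names a role for Pdx1 in keeping beta-cell identity and holding back an alpha-cell program, and the values below bear on how far the array signal of Pdx1 differed between groups and which genes moved with it.

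The promoter of Pdx1 and those of 3 reported targets are shown because the results turn on these genes. Each is the 250 bases before the RefSeq start site on GRCm38.p6, written in the direction of transcription. Capitals mark CACGTG, the E-box letters, in Pdx1 and the homeodomain core TAAT, read on either strand (so also as ATTA), in the others. The regions were chr5:147269847-147270096 on the plus strand for Pdx1, chr5:101664712-101664961 on the minus strand for Nkx6-1, chr3:28697653-28697902 on the plus strand for Slc2a2 and chr6:142298175-142298424 on the plus strand for Iapp.
Pdx1: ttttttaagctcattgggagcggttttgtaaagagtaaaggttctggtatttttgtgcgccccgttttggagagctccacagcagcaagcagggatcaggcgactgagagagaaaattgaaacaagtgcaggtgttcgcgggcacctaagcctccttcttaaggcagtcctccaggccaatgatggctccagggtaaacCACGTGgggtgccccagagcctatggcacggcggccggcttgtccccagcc
Nkx6-1: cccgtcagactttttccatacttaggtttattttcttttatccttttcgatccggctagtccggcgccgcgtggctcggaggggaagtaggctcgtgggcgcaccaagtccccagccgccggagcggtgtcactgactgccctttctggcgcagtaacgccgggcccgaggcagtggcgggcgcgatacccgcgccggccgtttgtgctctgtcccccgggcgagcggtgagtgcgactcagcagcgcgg
Slc2a2: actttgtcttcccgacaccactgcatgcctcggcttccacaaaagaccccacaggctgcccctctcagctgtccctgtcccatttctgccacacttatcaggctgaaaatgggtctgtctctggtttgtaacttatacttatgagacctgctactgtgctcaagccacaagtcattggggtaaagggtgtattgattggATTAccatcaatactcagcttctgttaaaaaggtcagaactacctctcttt
Iapp: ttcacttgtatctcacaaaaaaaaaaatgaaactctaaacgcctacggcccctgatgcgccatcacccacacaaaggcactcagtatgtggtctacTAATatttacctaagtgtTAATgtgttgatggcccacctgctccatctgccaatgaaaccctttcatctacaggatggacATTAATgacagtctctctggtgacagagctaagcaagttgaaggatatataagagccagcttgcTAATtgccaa
The Pdx1 window held 1 CACGTG, at position -51 from the start, and no TAAT. The Iapp window held 5 TAAT, the Slc2a2 window 1 and the Nkx6-1 window 0. Of 32851 promoters of this length, 54.9% held TAAT and 6.02% held CACGTG, so a TAAT match is common in any such window. Among the 18 measured Pdx1 targets described below, 12 had a promoter entry and 6 of these (50.0%) held TAAT, against 58.5% of all 27025 genes with an entry. The longer forms CTAATG and TAATTA, which contain TAAT, were in 6.36% and 4.84% of all promoters.

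Pdx1 signal was high in all beta arrays, lower in all alpha arrays and spread over the whole range in the Pdx1-deficient arrays. The log2 signals of beta replicates 1 to 5 were 8.85, 9.33, 9.26, 9.02 and 9.26, with a mean of 9.14 ± 0.20 (SD, n = 5). Those of alpha replicates 1 to 5 were 8.15, 7.98, 8.21, 7.70 and 7.27, with a mean of 7.86 ± 0.39 (SD, n = 5). No alpha array reached the lowest beta array. Those of Pdx1-deficient replicates 1 to 5 were 9.12, 7.83, 7.68, 6.53 and 7.59, with a mean of 7.75 ± 0.92 (SD, n = 5). Replicate 1 of the arrays labelled Pdx1-deficient lay inside the beta range, while replicate 4 was the lowest of all 15 arrays. The other 4 Pdx1-deficient arrays averaged 7.41 ± 0.60 (SD, n = 4). The array signal includes probes whose place relative to the deleted part is not known here, so the signal of 6.53 to 9.12 in these arrays is no measure of intact Pdx1 message, and Pdx1 cannot serve as a full check of the labels. In such RNA from many cells, fewer cells with Pdx1 and less Pdx1 RNA per cell cannot be told apart.

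**Figure D1:**
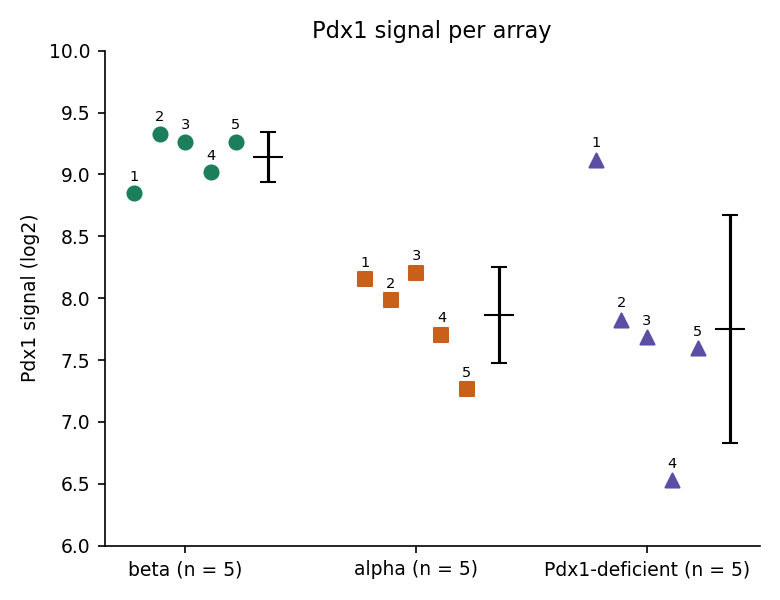
Pdx1 signal (log2, vertical axis) in each of the 15 arrays, by group, with the group mean and SD. The 5 beta arrays sit between 8.85 and 9.33, the 5 alpha arrays between 7.27 and 8.21, and the Pdx1-deficient arrays run from 6.53 to 9.12.

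Pdx1 was lower in alpha arrays than in beta arrays, with a log2 difference of -1.28 (SE 0.34), or 2.43-fold. This passed in limma with Benjamini-Hochberg adjustment over 19938 genes (adjusted p = 0.0473), and the exact permutation p was 0.00794 (two-sided), the smallest that 5 against 5 arrays allow. The call was narrow: it was lost in 14 of 23 alternative settings, 12 of which left out 1 array, any but alpha replicate 2 and Pdx1-deficient replicates 1 and 4 (limma adjusted p up to 0.107). The main fit shares 1 estimate of spread with the Pdx1-deficient arrays, whose SD for Pdx1 was 0.92. In a fit of the alpha and beta arrays alone the limma adjusted p was 0.00719. In the fit of all groups it was 0.0101 without Pdx1-deficient replicate 1 and 0.0167 without replicate 4. Between Pdx1-deficient and beta arrays the log2 difference was -1.39 (SE 0.34), or 2.63-fold, which did not pass (limma adjusted p = 0.0575, exact permutation p = 0.0238). Without Pdx1-deficient replicate 1 the difference passed, at -1.74 with a limma adjusted p of 0.00617. Between Pdx1-deficient and alpha arrays the difference was -0.11 (SE 0.34, limma adjusted p = 0.994, exact permutation p = 0.810), and its sign turned without Pdx1-deficient replicate 4 (0.19). The beta arrays are shared by the first 2 comparisons. As background, 4.04% of all genes passed between alpha and beta, 1.09% between Pdx1-deficient and beta, and 0% (0 genes, 1197 at an unadjusted p under 0.05) between Pdx1-deficient and alpha. These counts over all genes rested on single arrays. The 217 genes called between Pdx1-deficient and beta were 548 without Pdx1-deficient replicate 1, 69 without beta replicate 3, 21 without Pdx1-deficient replicate 2 and 0 to 4 without beta replicate 1, 4 or 5 or Pdx1-deficient replicate 4 or 5. The 806 called between alpha and beta were 1430 without alpha replicate 2, 527 without beta replicate 3, and 328 to 439 without beta replicate 1, 4 or 5 or alpha replicate 1, 3, 4 or 5. The 0 between Pdx1-deficient and alpha was 145 without alpha replicate 2 and 1 without Pdx1-deficient replicate 1. For 6.34% of genes, all alpha arrays lay on one side of all beta arrays.

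The spread of Pdx1 was unequal between groups. Its SD in the Pdx1-deficient arrays was larger than that of 99.1% of genes in the same arrays, while the SD in beta ranked at 59.5% and that in alpha at 84.9%. Among genes with a mean signal of at least 6.15 the ranks were 98.6% in Pdx1-deficient, 39.4% in beta and 75.8% in alpha arrays. Over all genes the median SD was 0.20, 0.17 and 0.19 in these groups. Differences between group means held 59.0% of the total sum of squares of Pdx1. Of the rest, 81.7% came from the Pdx1-deficient arrays, 14.4% from alpha and 3.96% from beta, so any relation with Pdx1 inside groups rests mostly on Pdx1-deficient replicates 1 and 4. In order of signal, the 9 lower arrays were all alpha arrays and Pdx1-deficient replicates 2 to 5, a step of 0.64 separated the highest of them from beta replicate 1, and the largest step, 0.74, lay between Pdx1-deficient replicate 4 and alpha replicate 5. Neighbours inside the lower series, from 7.27 to 8.21, did not separate by group.

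Genes that followed Pdx1 over all 15 arrays were led by Nkx6-1, a homeodomain factor of beta cells and a reported target of Pdx1. In a limma fit of each gene's signal on the Pdx1 signal, 971 of 19937 genes passed (4.87%), 744 with a positive slope (3.73%) and 227 with a negative one (1.14%). The count depended on single arrays. It was 341 without Pdx1-deficient replicate 4, 641 without Pdx1-deficient replicate 5, and 577, 519, 456 and 460 without beta replicates 1, 3, 4 and 5 in turn. Without Pdx1-deficient replicate 1, the array whose Pdx1 lay in the beta range, it was 1028. These slopes include the differences between groups, so a gene that differs between beta and the other cells for any reason can have a high likeness. Likeness was taken as Pearson r, and among all genes r had a median of -0.17, with 5% of genes below -0.64 and 5% above 0.65. The genes named next were picked for high r among 9591 genes with a mean signal of at least 6.15, so their permutation p-values, each from 100000 permutations with 1e-05 as the smallest possible, carry no allowance for that choice, whereas the adjusted p from limma runs over all genes.

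Nkx6-1 had log2 signals of 7.17, 7.68, 8.12, 7.71 and 7.99 in beta, 6.79, 6.64, 6.80, 6.66 and 6.42 in alpha, and 7.73, 6.97, 6.66, 6.09 and 6.22 in the Pdx1-deficient arrays. Pdx1-deficient replicate 1 lay inside the beta range, as it did for Pdx1, and Pdx1-deficient replicate 4, the lowest for Pdx1, was also the lowest for Nkx6-1. Pearson r with Pdx1 was 0.940 (permutation p = 1e-05), Spearman rho 0.918 (permutation p = 2e-05), and r without Pdx1-deficient replicate 4 and beta replicate 2, the arrays farthest from the Pdx1 median, was 0.943. The slope was 0.72 per unit of Pdx1 (SE 0.07, limma adjusted p = 0.000417).

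Ranked after Nkx6-1 came Nars, the asparaginyl-tRNA synthetase, with r = 0.925, and then Abraxas2, a scaffold of a deubiquitinating complex, with r = 0.918. Scd2, a fatty acid desaturase, had r = 0.916 and a slope of 0.90. Glp1r, the receptor for the incretin GLP-1, had r = 0.914. Its log2 signals were 9.69, 9.69, 10.05, 9.93 and 9.90 in beta, 8.52, 8.21, 8.07, 8.70 and 8.62 in alpha, and 10.13, 8.26, 8.13, 6.95 and 7.51 in the Pdx1-deficient arrays. Glp1r thus ran low in Pdx1-deficient replicates 4 and 5, below every alpha array, and high in replicate 1, above every beta array. Its Spearman rho was 0.779 (permutation p = 0.00102) and its slope 1.08 (SE 0.12, limma adjusted p = 0.000713). Vps35, a core part of the retromer that sorts cargo out of endosomes, had r = 0.913. Papss2, which makes the sulfate donor PAPS, had r = 0.912 and a slope of 1.30, a steeper one than that of Nkx6-1. Nabp1, a single-stranded DNA binding protein, had r = 0.912, Ero1b, the endoplasmic reticulum oxidase that supports disulfide bonds in proinsulin, r = 0.911, and Rnasek r = 0.909. All 10 passed in limma, with adjusted p from 0.000417 (Nkx6-1) to 0.00167 (Rnasek), and in each the call held without any single array.

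**Figure D2:**
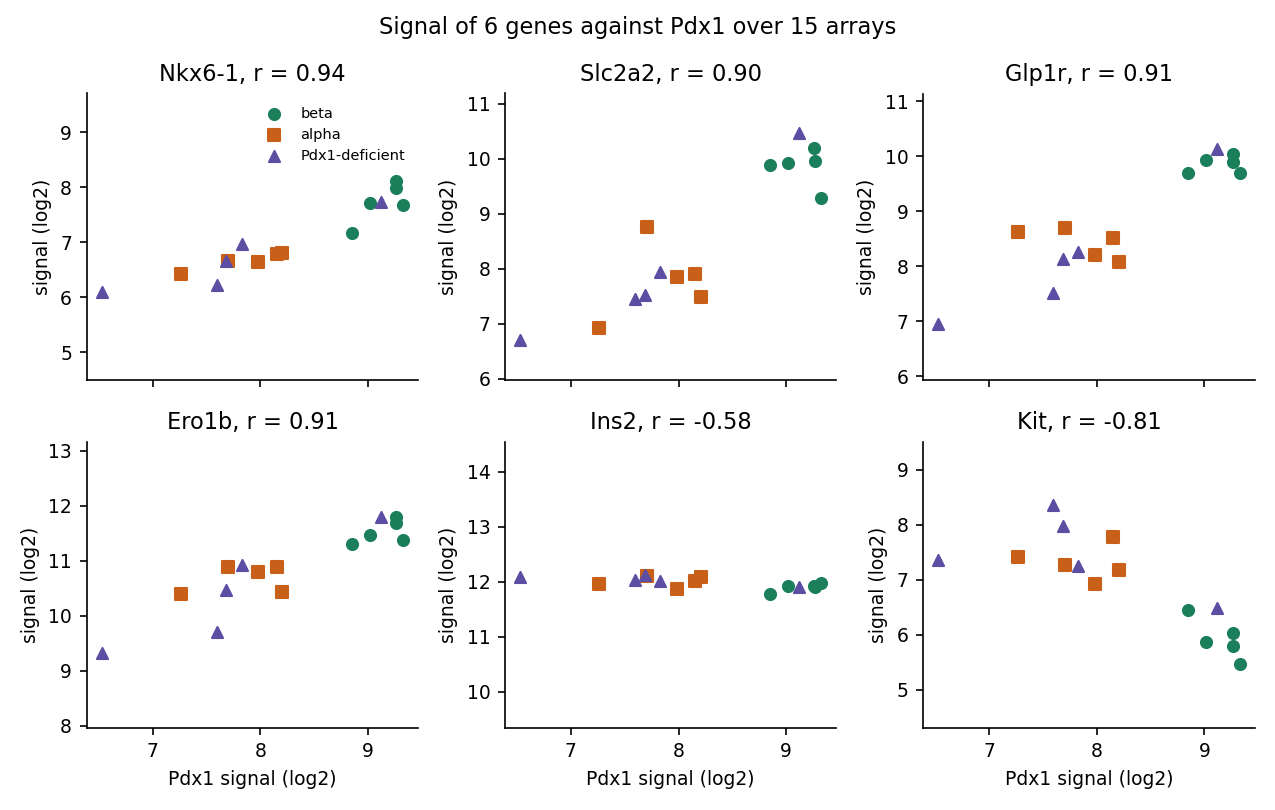
Log2 signal of 6 genes (vertical axes, equal span) against the log2 signal of Pdx1 over the 15 arrays, with beta as circles, alpha as squares and Pdx1-deficient as triangles. Nkx6-1, Slc2a2, Glp1r and Ero1b rise with Pdx1 (r = 0.940, 0.904, 0.914 and 0.911), Ins2 is nearly flat, and Kit falls (r = -0.808).

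At the other end, 10 genes ran against Pdx1. Arvcf, an armadillo-repeat protein of cell junctions, had r = -0.899 (permutation p = 4e-05), with a shallow slope of -0.21 (limma adjusted p = 0.00676). Mapk15, an atypical MAP kinase, had r = -0.883. Sinhcaf, a subunit of the SIN3-HDAC corepressor complex, had r = -0.863 and log2 signals of 9.01, 9.53, 8.76, 9.60 and 8.57 in beta, 9.55, 9.61, 9.78, 10.17 and 9.81 in alpha, and 9.26, 10.41, 10.29, 11.03 and 10.33 in the Pdx1-deficient arrays. Its highest array was the one with the lowest Pdx1, and Pdx1-deficient replicate 1 lay inside the beta range. The slope was -0.67 (SE 0.10, limma adjusted p = 0.00339).

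Kit, the receptor for stem cell factor, had the steepest negative slope of the 10, -0.81 (SE 0.15, limma adjusted p = 0.00949), with r = -0.808. Its log2 signals were 6.44, 5.47, 5.80, 5.86 and 6.03 in beta, 7.78, 6.92, 7.18, 7.27 and 7.42 in alpha, and 6.49, 7.25, 7.97, 7.36 and 8.35 in the Pdx1-deficient arrays. Every alpha and Pdx1-deficient array was above every beta array. Kit was higher than in beta by 1.56 in the Pdx1-deficient arrays (limma adjusted p = 0.0316) and by 1.39 in alpha (limma adjusted p = 0.0168). The others were Hlf, a circadian leucine-zipper factor (r = -0.821), Basp1, a membrane-bound growth cone protein (r = -0.810), Syt16, a synaptotagmin relative (r = -0.809), Vps9d1 (r = -0.825), Efcc1 (r = -0.811) and the microRNA locus Mir666 (r = -0.826). All 10 passed in limma, though Efcc1, Mir666 and Vps9d1 did not without Pdx1-deficient replicate 4 (adjusted p of 0.0598, 0.0792 and 0.0910).

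**Figure D3:**
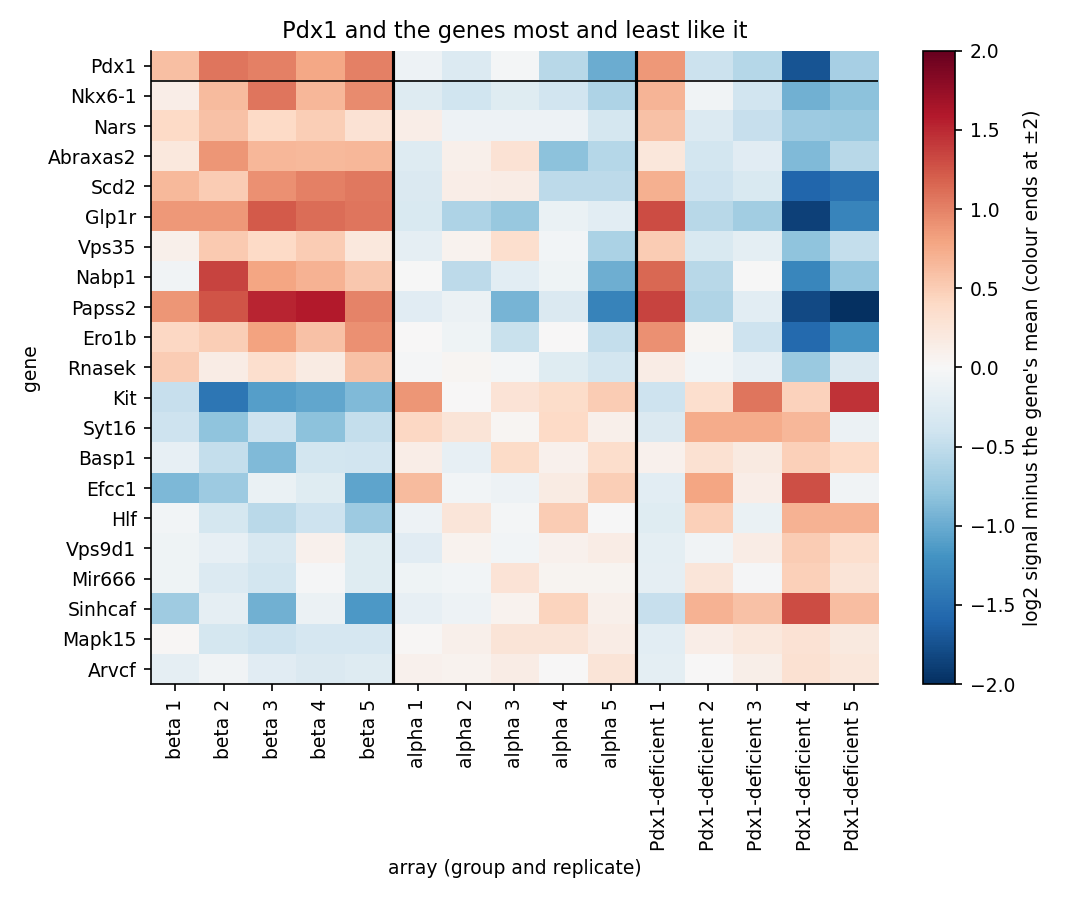
Log2 signal minus the gene's mean over 15 arrays (colour, ending at ±2) for Pdx1, the 10 genes most like it and the 10 least like it (rows) in each array (columns, by group and replicate). Pdx1-deficient replicate 1 has the colours of the beta arrays for Pdx1, Nkx6-1 and Glp1r, and replicates 4 and 5 are the deepest blue for Scd2, Glp1r, Papss2 and Ero1b.

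Of the 18 measured genes reported as direct Pdx1 targets, 9 passed with a positive slope and 0 with a negative one, against 3.73% and 1.14% of all genes. The 9 were Nkx6-1, Glp1r, Ero1b, Slc2a2, Ucn3, Atp2a2, G6pc2, Atf4 and Iapp. The median slope of the list was 0.33, beside -0.04 for all genes. Leaving out any single array left 8 or 9 targets past the threshold (9 without Pdx1-deficient replicate 1). Of the 9, all but Atp2a2 and Atf4 are also among the beta-cell markers used below, and the lists were chosen with earlier results of these data known. The count therefore does not tell following Pdx1 from differing between beta and the other groups.

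Slc2a2, the glucose transporter GLUT2 whose promoter is printed above, had log2 signals of 9.88, 9.28, 9.95, 9.92 and 10.19 in beta, 7.90, 7.85, 7.49, 8.76 and 6.93 in alpha, and 10.46, 7.94, 7.52, 6.71 and 7.45 in the Pdx1-deficient arrays. It was highest of all in Pdx1-deficient replicate 1 and lowest in replicate 4. Pearson r was 0.904 (permutation p = 4e-05), rho 0.846 (permutation p = 0.00018) and the slope 1.37 (SE 0.16, limma adjusted p = 0.000808). Ucn3, the secreted peptide urocortin 3 of mature beta cells, had the steepest slope among the targets that passed, 1.43 (SE 0.18, limma adjusted p = 0.00132), with r = 0.893. Its log2 signals were 10.95, 11.13, 11.05, 11.00 and 11.50 in beta, 9.39, 9.12, 8.06, 9.29 and 8.41 in alpha, and 10.88, 9.34, 8.65, 7.92 and 7.44 in the Pdx1-deficient arrays. All 10 alpha and Pdx1-deficient arrays were below all beta arrays, Pdx1-deficient replicate 1 only just.

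Ero1b, the oxidase named above, read 11.30, 11.37, 11.69, 11.46 and 11.79 in beta, 10.88, 10.79, 10.44, 10.88 and 10.40 in alpha, and 11.80, 10.92, 10.46, 9.32 and 9.71 in the Pdx1-deficient arrays. Its slope was 0.78 (SE 0.09, limma adjusted p = 0.000738). Atp2a2, the SERCA2 calcium pump of the endoplasmic reticulum, had r = 0.863 and a slope of 0.32 (limma adjusted p = 0.00602). G6pc2, the islet glucose-6-phosphatase, had r = 0.796 and a slope of 0.85 (limma adjusted p = 0.0110). Atf4, a factor of the stress response, had r = 0.785 and a slope of 0.34 (limma adjusted p = 0.0176).

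Signals of the hormone genes lay near the upper end of the scale, where each array's highest cluster read 13.25 to 13.45, so whether the array could still resolve differences in these abundant messages was not tested. Iapp, the amylin gene with 5 TAAT in its printed window, had r = 0.786 (permutation p = 0.00041) but a slope of only 0.20 (limma adjusted p = 0.0269), and this call was lost without Pdx1-deficient replicate 4, beta replicate 3 or beta replicate 5 (limma adjusted p up to 0.0641). Its log2 signals lay between 12.25 and 12.47 in beta, 11.65 and 12.14 in alpha and 11.92 and 12.43 in the Pdx1-deficient arrays. Ins2 had log2 signals of 11.77, 11.98, 11.91, 11.93 and 11.92 in beta, 12.00, 11.86, 12.09, 12.09 and 11.96 in alpha, and 11.90, 12.02, 12.12, 12.09 and 12.02 in the Pdx1-deficient arrays. The Ins2 signals of the alpha and beta arrays overlapped, and r with Pdx1 was -0.584 (permutation p = 0.0222) with a slope of -0.07 that did not pass (limma adjusted p = 0.223). Gcg, the glucagon gene, was likewise high in all groups, from 12.15 to 12.51 in beta, 12.49 to 12.87 in alpha and 12.34 to 12.79 in the Pdx1-deficient arrays, with r = -0.252 (limma adjusted p = 0.534). Gcg was higher in alpha than in beta by 0.39, which did not pass (limma adjusted p = 0.0638). Alpha replicate 2, at 12.49, lay within the beta range, and the other alpha arrays, from 12.74 upwards, lay above every beta array. The Ins2 signals therefore give no usable check of the titled cell types, and those of Gcg only a partial one. Mafa, a beta-cell factor that binds the insulin promoter with Pdx1, had r = 0.297 (permutation p = 0.283, limma adjusted p = 0.487).

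Between groups, the targets' counts were less steady. Against beta, 2 of the 18 were lower in the Pdx1-deficient arrays (Ucn3, at -2.28 with limma adjusted p = 0.0389, and Atf4, at -0.68 with limma adjusted p = 0.0491), and 7 were lower in alpha (Wfs1, Pcsk1, G6pc2, Ucn3, Atp2a2, Nkx6-1 and Slc2a2). None was higher in either comparison, whose backgrounds for lower genes were 0.928% and 3.15%. The median differences were -0.48 and -0.51, beside 0.06 and 0.04 for all genes. The first count was 8 without Pdx1-deficient replicate 1, 1 without beta replicate 2 or alpha replicate 1, 3 or 4, and 0 without any other beta or Pdx1-deficient array. The count of 7 was 4 without beta replicate 2, 3 or 4 or alpha replicate 1, 3 without beta replicate 5 or alpha replicate 5, and 1 without alpha replicate 3. Wfs1, an endoplasmic reticulum membrane protein, differed in alpha from beta by -1.25 (limma adjusted p = 0.00436) and Pcsk1, a prohormone convertase, by -2.27 (limma adjusted p = 0.0170), but their slopes on Pdx1 did not pass (adjusted p of 0.0632 and 0.182). Fgfr1, a growth factor receptor, had a negative r of -0.627 (limma adjusted p = 0.0825).

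Of 18 listed factors that act on the Pdx1 gene, 15 were measured and 0 passed for the slope on Pdx1, against 4.87% of all genes, a share too near 0 for a list of this size to stand apart. The median slope was -0.03, beside -0.04 for all genes. The nearest was Foxo1, a forkhead factor known to restrain Pdx1 (r = 0.695, rho = 0.527, limma adjusted p = 0.0516), which passed without beta replicate 2 or Pdx1-deficient replicate 3. Foxa2, a forkhead activator of the gene, had r = 0.553 (limma adjusted p = 0.145). Nkx2-2, Pax6 and Neurod1, islet factors with sites at the Pdx1 gene, had r of 0.070, -0.178 and -0.170. Between groups, Glis3 alone passed, with a difference of -0.53 between alpha and beta (limma adjusted p = 0.0443), a call lost on leaving out any of 9 single arrays.

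Of 22 listed proteins that bind or modify Pdx1, 19 were measured. For the slope 0 passed (4.87% of all genes), between Pdx1-deficient and beta 0 (1.09%) and between alpha and beta 0 (4.04%), or 2 without alpha replicate 2, counts that do not set the list apart from all genes. The median slope was 0.04. Hdac1, a histone deacetylase, had r = 0.686 (limma adjusted p = 0.0629) and Ep300, a histone acetyltransferase, r = -0.527 (limma adjusted p = 0.166). The Pbx and Meis cofactors with a cluster of their own (Pbx2, Pbx3, Meis1 and Meis2) had r between -0.054 and 0.361.

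Among the relatives of Pdx1 and its neighbours on the chromosome, Cdx4 alone passed. The nearest annotated protein-coding neighbours were Lnx2, Polr1d and Gsx1 on one side (r = 0.359, 0.603 and -0.520) and Cdx2, Urad and Flt3 on the other (r = -0.472, -0.572 and -0.209), and none passed. Gsx1 and Cdx2 are also its ParaHox relatives, along with Cdx1 (r = -0.146), Gsx2 (r = -0.126) and Cdx4 (r = 0.763). Cdx4 passed (slope 0.47, limma adjusted p = 0.0208), on a low signal between 3.71 and 5.65.

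Of 19 measured genes of protein folding in the endoplasmic reticulum, 11 passed with a positive slope on Pdx1 and 0 with a negative one, against 3.73% and 1.14% of all genes. All 19 slopes were above 0 (median 0.32, beside -0.04). Without Pdx1-deficient replicate 4 the count was 7, and without replicate 1 it was 12. Calr, the calcium-binding chaperone calreticulin, had r = 0.902 (permutation p = 2e-05, limma adjusted p = 0.00167). Its log2 signals were 10.81, 10.92, 10.91, 11.02 and 11.19 in beta, 10.43, 10.11, 10.48, 10.36 and 10.11 in alpha, and 10.68, 10.51, 10.30, 10.02 and 9.98 in the Pdx1-deficient arrays. Here Pdx1-deficient replicate 1 lay between the alpha and beta arrays, not among the beta arrays.

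Hyou1, a chaperone of the Hsp70 kind, had r = 0.866 and a slope of 0.82 (limma adjusted p = 0.00283). Its signal in Pdx1-deficient replicate 1, 9.61, was likewise below the beta arrays (10.17 to 10.87), as was the mean over the list in that array (9.97, beside 10.15 to 10.44 in beta and 9.52 to 9.86 in alpha). The stress factors Ddit3 and Trib3 had r of 0.460 and 0.165, and the chaperone Hspa5, also called BiP, r = 0.641 (limma adjusted p = 0.109), none of which passed. Against beta, 8 of 19 were lower in the Pdx1-deficient arrays and 10 in alpha, beside 0.928% and 3.15% of all genes. The first of these counts was 0 without beta replicate 1, 4 or 5 or Pdx1-deficient replicate 4 or 5, 1 without Pdx1-deficient replicate 2 and 2 without beta replicate 3.

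Markers of the cell types showed how far the titles were borne out. Between alpha and beta arrays, 5 of 10 alpha-cell markers passed as higher in alpha (Ndst4, Slc7a2, Smarca1, Etv1 and Irx2) and 0 as lower. Of 15 beta-cell markers, 5 passed as lower in alpha and 0 as higher, beside 3.15% and 0.893% of all genes. These counts were 4 to 7 and 0 to 7 without single arrays. Between Pdx1-deficient and beta arrays, Ndst4 alone passed as higher and Ucn3 alone as lower, too few to set a list apart. Of 15 beta-cell markers other than Pdx1, 8 followed it positively, against 3.73% of all genes. Of these 8, 7 were targets already described and the other was Sytl4, a granule docking protein (r = 0.805). The mean log2 signal of the 15 was 9.76 to 10.01 in beta, 8.62 to 9.20 in alpha, and 10.01, 9.24, 9.15, 8.70 and 8.74 in Pdx1-deficient replicates 1 to 5. Of 10 alpha-cell markers, 1 had a negative slope that passed and 0 a positive one, against 1.14% and 3.73% of all genes. Slope counts this small do not set the list apart. The 1 was Ndst4, a heparan sulfate enzyme (r = -0.677, limma adjusted p = 0.0477), and its call was lost on leaving out any of 10 single arrays. Ndst4 signals were between 4.24 and 4.84 in beta, 6.50 and 8.79 in alpha and 5.73 and 7.23 in the Pdx1-deficient arrays, with replicate 1 at 6.77, above the beta arrays although its Pdx1 was not below them. The mean over the alpha-cell markers was 7.95 to 8.23 in beta, 8.46 to 9.37 in alpha and 8.37 to 8.72 in the Pdx1-deficient arrays. The highest of the last group was replicate 1, its array with the most Pdx1. The 8.46 was alpha replicate 2 alone, and the other alpha arrays stood at 9.18 to 9.37, above every Pdx1-deficient array. Alpha replicate 2 was the lowest alpha array for 9 of 10 alpha-cell markers, against 30.5% of all genes.

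Of other cell types, acinar markers stood at a mean of 10.69 in alpha replicate 5, the alpha array with the least Pdx1, and at 6.07 to 7.25 in the other 14 arrays. No gene of the endothelial, leukocyte or stromal lists (8, 8 and 9 measured) passed for the slope, and 1 each of the delta, PP and epsilon list (Casr, r = 0.821), the acinar list (Bhlha15, r = 0.722) and the duct list (Cldn7, r = 0.750) did, all with positive slopes. All 9 stromal and all 8 endothelial slopes were nonetheless below 0, with medians of -0.09 and -0.07. The median over all genes was below 0 too, at -0.04. The stromal marker mean was 5.27 to 5.50 in beta, 5.36 to 6.07 in alpha and 5.53 to 5.75 in the Pdx1-deficient arrays. All 9 of its genes had higher means in alpha and in Pdx1-deficient arrays than in beta. The median differences were 0.23 and 0.18, beside 0.04 and 0.06 for all genes. The r of the stromal marker mean with Pdx1 was -0.515 (permutation p = 0.0496, adjusted p = 0.109 over 11 relations by Benjamini-Hochberg), its rho -0.611 (permutation p = 0.018, adjusted p = 0.0397) and its r without the farthest 2 arrays -0.577, against -0.074 within groups (permutation p = 0.753). The part of stromal RNA in the slopes on Pdx1 was not tested.

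**Figure D4:**
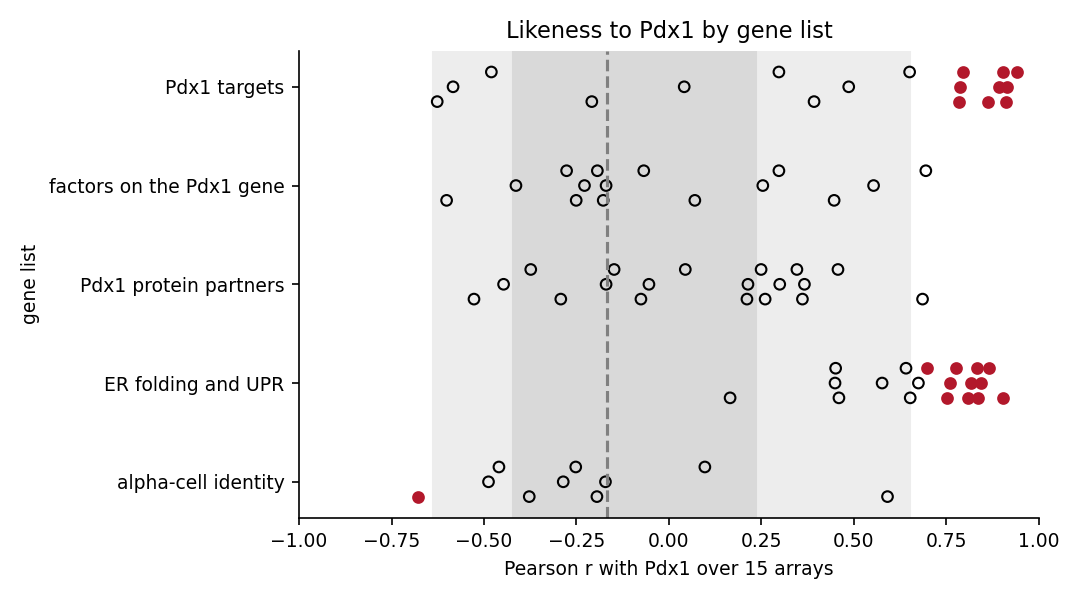
Pearson r with Pdx1 over 15 arrays (horizontal axis) for each measured gene of 5 lists (rows), filled where the slope passed in limma (adjusted p under 0.05) and open where it did not. Grey bands span the middle 50% and 90% of all 19937 genes and the dashed line is their median, -0.17. Targets and folding genes gather to the right, and factors on the Pdx1 gene and protein partners spread around the median.

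Pdx1 signal also ran with measures of the whole array. Over 15 arrays, r with the array median was -0.758 (permutation p = 0.00136, adjusted p = 0.00499 over 11 relations by Benjamini-Hochberg, rho = -0.768, r without the farthest 2 arrays -0.721), and with the interquartile range of the array 0.714 (permutation p = 0.00305, adjusted p = 0.00839, rho = 0.625, 0.626 without the farthest 2). The array medians were 5.88 to 5.93 in beta, 5.93 to 6.02 in alpha and 5.96 to 6.05 in the Pdx1-deficient arrays, so they moved with the groups too. Within groups the relations were r = -0.345 (permutation p = 0.404) and r = 0.306 (permutation p = 0.524). With the array median as a further covariate no gene passed for the slope on Pdx1 in limma (0 of 19937, 1001 at an unadjusted p under 0.05), and with the interquartile range, an alternative added after seeing the data, again 0 (1117 at an unadjusted p under 0.05). With 0 genes passing under either covariate, no target or folding gene could pass, so this says nothing further about those lists. Subtracting each array's median instead gave 1436 genes, 1341 positive and 95 negative.

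Once the differences between groups were taken out, no gene passed. The within-group fit shares 1 slope over the 3 groups, each with a mean of its own, and 0 of 19937 genes (0%) had a limma adjusted p under 0.05, with 1387 at an unadjusted p under 0.05. Single arrays decided the few calls that alternatives made, as 1 gene passed without alpha replicate 3 and 6 without Pdx1-deficient replicate 5, Nkx6-1, Ero1b and Scd2 among them. The values that follow are therefore a description. As r of deviations from the group means, likeness had a median of -0.08 over all genes, with 24 genes above 0.8 and 18 below -0.8. Among the 100 genes of largest absolute r on each measure, 37 were in both, although the measures share the same arrays and Pdx1 values.

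Vps35, the retromer subunit, was the most alike within groups, at r = 0.888 (permutation p = 0.00113 within groups) and 0.749 without Pdx1-deficient replicates 1 and 4. Its log2 signals were 8.68, 9.09, 8.98, 9.08 and 8.79 in beta, 8.40, 8.65, 8.91, 8.51 and 7.94 in alpha, and 9.08, 8.27, 8.38, 7.77 and 8.11 in the Pdx1-deficient arrays. In each group the array with the least Pdx1 (beta replicate 1, alpha replicate 5 and Pdx1-deficient replicate 4) also had the least Vps35. Ywhaq, a 14-3-3 protein, had a within-group r of 0.885 (0.770 without the same 2 arrays).

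Kcnip1, which modulates potassium channels, had a within-group r of 0.884 (0.649 without the 2) and log2 signals of 8.71, 8.68, 8.69, 8.88 and 8.34 in beta, 6.56, 6.79, 6.56, 6.46 and 5.37 in alpha, and 8.23, 7.17, 7.33, 5.93 and 6.90 in the Pdx1-deficient arrays. Alpha replicate 5 and Pdx1-deficient replicate 4 were again the lowest of their groups, but in beta the lowest was replicate 5. Nkx6-1 ranked at 5, with a within-group r of 0.866 (permutation p = 7e-05), 0.644 without the 2, and a within-group slope of 0.65 (limma unadjusted p = 3.52e-05, adjusted p = 0.172). The others of the 10 highest were Nabp1, Nars, Ero1b, Eif4a2, AW549877 and Rwdd4a, at r from 0.832 to 0.873.

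For Glp1r and Slc2a2 the likeness within groups rested on those arrays. Glp1r had a within-group r of 0.799, which was -0.206 without Pdx1-deficient replicates 1 and 4, and Slc2a2 had 0.799, which was 0.207. Ero1b went from 0.852 to 0.375. Whether the drop differs between these genes was not tested.

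**Figure D5:**
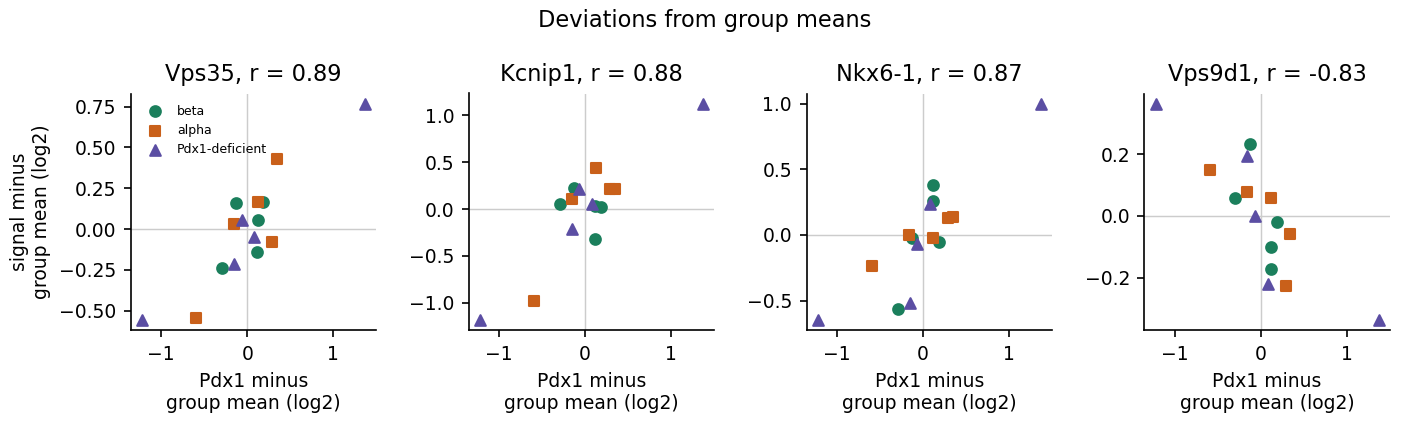
Deviation of 4 genes from their group means (log2, vertical axes, each with its own span) against the deviation of Pdx1 from its group mean (log2, horizontal axes), with 15 arrays in each panel and groups by colour and shape. The Pdx1-deficient arrays at the far left and far right are replicates 4 and 1, and r is 0.89 for Vps35, 0.88 for Kcnip1, 0.87 for Nkx6-1 and -0.83 for Vps9d1.

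Against Pdx1 within groups ran Dgkz, a diacylglycerol kinase (r = -0.846), Hipk1, a homeodomain-interacting kinase (r = -0.844), Pfn2, a profilin (r = -0.840), Vps9d1 (r = -0.828) and Nfe2l2, the oxidative stress factor NRF2 (r = -0.803), with Dtd1, Snora52, Rrp15, Rundc1 and Olfr1497 between -0.803 and -0.817. Pfn2 and Dgkz showed no such likeness over all 15 arrays, where their r was -0.396 and -0.422. Without Pdx1-deficient replicates 1 and 4 the within-group r was -0.422 for Dgkz, -0.519 for Hipk1, -0.495 for Dtd1 and -0.684 for Nfe2l2. The Nfe2l2 signals of 8.89 in Pdx1-deficient replicate 4 and 8.62 in alpha replicate 5 were the highest of their groups.

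The extreme arrays of each group matched Pdx1 for many targets at the low end and for few at the high end of beta and alpha. The array with the least Pdx1 in its group was the lowest for 9 of 18 targets in beta (replicate 1) and alpha (replicate 5) and for 8 of 18 in the Pdx1-deficient group (replicate 4), against 15.4%, 17.0% and 17.3% of all genes. Alpha replicate 5 also had the acinar marker mean of 10.69. It was the lowest alpha array for 7 of 15 factors on the Pdx1 gene and 5 of 8 delta, PP and epsilon markers. For protein partners and folding genes it was the lowest for 1 of 19 each. The part of acinar RNA in these counts was not tested. At the high end, Pdx1-deficient replicate 1 was the highest of its group for 10 of 18 targets, against 15.02% of all genes. It was also the highest for 9 of 12 acinar markers, 10 of 15 beta-cell markers and 12 of 19 folding genes. For factors on the Pdx1 gene and protein partners it was the highest for 0 of 15 and 2 of 19. The part of acinar RNA in this array's counts was not tested either. Beta replicate 2 and alpha replicate 3, which had the most Pdx1 of their groups, were the highest for only 2 of 18 each, against 14.8% and 20.3% of all genes. In beta the highest array for 9 of 18 was replicate 5, which was also the highest for 31.1% of all genes. In alpha the highest for 9 of 18 was replicate 4, against 15.03% of all genes. Alpha replicate 4 had less Pdx1 than all alpha arrays but replicate 5. Of the 19 folding genes, 13 were lowest in beta replicate 1, but in the Pdx1-deficient group 13 were lowest in replicate 5 and 5 in replicate 4, so the order of these genes departed from that of Pdx1 there.

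Whether genes followed Pdx1 by a different slope in the Pdx1-deficient arrays than in alpha arrays was tested as a difference of slopes, and 0 of 19937 genes passed in limma (1091 at an unadjusted p under 0.05). Without alpha replicate 4, which left the low Pdx1 end of the alpha group to replicate 5, 50 genes passed. Acinar enzymes such as Cela2a, Prss2 and Cel were among the 50, named after their values were seen, and alpha replicate 5 is the array with the acinar mean of 10.69. Without beta replicate 5, 1 gene passed.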

How the data were processed

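The deposited table held 1 log2 signal per cluster and array for 15 Affymetrix Mouse Gene 1.0 ST arrays. The submitters' processing notes name Affymetrix Expression Console, and the deposited log2 values were used as the authors normalized them, with the summary method and background correction not given in the sources used here. The log2 base was read from the range of the values. Of 35556 clusters, 21789 had 1 gene symbol in the platform annotation, 1621 several and 12146 none, and 21698 of the single-symbol clusters matched the reference by gene ID with 0 symbols changed. Each of 19938 genes was read from its brightest single-symbol cluster, and 999 had more than 1. Genes of the lists without such a cluster were not analysed here. The number of arrays limits the precision.

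Groups and replicate numbers came from the titles. Group means were compared with limma 3.58.1 in R 4.3.3 (lmFit and eBayes, 15 arrays sharing 1 estimate of spread), and each other gene was fitted on the Pdx1 signal, without and with group means and with a slope per group. P-values were adjusted by Benjamini-Hochberg over all genes at a threshold of 0.05. Permutation tests (100000 permutations, two-sided, Pdx1 deviations permuted within groups for within-group r) and correlations used Python 3.11.15 and NumPy 2.4.6. Scripts were tested on simulated data. Genes were named as the 10 most positive and 10 most negative r on each measure among 9591 genes with a mean signal at or above the median gene (Gm, LOC and Rik symbols left out), up to 4 members of each list or the 2 of smallest p where none passed, all ParaHox genes, 3 neighbours on each side of Pdx1, and a few well-known Pdx1 targets and alpha-cell genes. Further genes of a list that passed are named with it. The gene and the lists were chosen with earlier results of these data known. Promoter sequences were from RefSeq for GRCm38.p6. Alternatives were another scaling, a filter on dim genes, trend and robust moderation, a replicate block, the mean of a gene's clusters, only the groups compared, the rank of Pdx1, array-wide covariates and leaving out arrays. The main fits did not pair arrays by replicate number. Deviations of same-numbered arrays correlated between -0.172 and 0.224 across groups, and from 0.00504 to 0.224 between beta and alpha. Such values cannot settle whether same-numbered arrays belonged together.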

Additional observations from a re-analysis of the deposited data

Results flagged for a closer look

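Of 123 groups of 5 arrays checked over 41 named genes, 3 held an array far from the others, a size of gap that chance gives in about 5% of groups. Mapk15, which ran against Pdx1, was 6.48 in beta replicate 1, the beta array with the least Pdx1, with the nearest beta array at 6.11. AW549877 was 6.93 in alpha replicate 5, with the nearest alpha array at 7.89. Kcnip1 was 5.37 in the same array, with the nearest alpha array at 6.46. Alpha replicate 5 had the least Pdx1 of the alpha arrays and the acinar marker mean of 10.69, whose part in these values was not tested.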

How the results depend on the processing

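Pdx1 in Pdx1-deficient against beta was -1.49 with array medians subtracted, -1.39 with dim genes removed and -1.74 without Pdx1-deficient replicate 1 and alpha replicate 2, each now passing in limma (adjusted p of 0.0368, 0.0337 and 0.00721), and ran from -1.74 to -1.09 when single arrays were left out. Alpha against beta was -1.18 with quantile normalization and -1.28 with the replicate block, no longer passing (limma adjusted p of 0.0768 and 0.0506), and -1.37 to -1.13 without single arrays. Pdx1-deficient against alpha was -0.45 to 0.19 without single arrays, reversed at 0.19 without Pdx1-deficient replicate 4. The 971 genes that followed Pdx1 became 361 with quantile normalization (304 positive, 57 negative), 392 with the replicate block, 279 on the rank of Pdx1 and 0 with the array median or the interquartile range (an alternative added after seeing the data) as a covariate, and 341 to 1070 without single arrays. Within groups the count of 0 was 0 to 6 without single arrays. The count of 0 differing slopes was 1 with trend and robust moderation, 3 without Pdx1-deficient replicate 1 and alpha replicate 2, 1 on the rank of Pdx1 and 0 to 50 without single arrays. The slope of Gcg reversed to 0.0196 with the array median as a covariate. Of 26 named slopes over all arrays, 25 reversed under none of the alternatives run, 23 passed, and none passed under every alternative; of 20 within groups, none reversed. The cause of these changes was not tested. With the replicate block, 8 genes were called between Pdx1-deficient and beta (217 without it) and 633 between alpha and beta (806 without it). The 217 were also 615 with array medians subtracted, 29 with quantile normalization, 89 in a fit of those groups alone, 121 under robust, trended moderation and 389 among the brighter genes. The replicate block changed no other call on Pdx1 itself. Of 30 comparisons of an array with the 5 arrays of another group, 7 were closest at its own number. With 5 arrays to choose from each time, some such matches arise by chance, so the 7 cannot settle the pairing. Array signals have no read depth, and clusters near the low end, such as Cdx4, limit what a difference there can show.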
